A study of Homo sapiens with 12 samples.

Results

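Of 178040 merged ATAC-seq regions, 9312 (5.23%) were called in every one of 12 libraries, were narrower than 2000 bp and lay within 1 kb of the start or end of a protein-coding gene. These constitutive regions at coding gene ends, the members below, were chosen by the measured peak calls themselves and by merged width. Presence in all libraries and the upper limit of width are therefore properties of the selection and not findings. To form them, peaks of all libraries that overlapped by at least 1 bp were merged on chromosomes 1 to 22 and X, and gene ends were taken from RefSeq on GRCh38. The members made up 38.6% of the 24148 regions called in all 12 libraries. The other 14836 such regions lay away from coding gene ends or, for 851 regions at such ends, were 2000 bp wide or wider.

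The libraries came from MIAPaCa2, an established human line of pancreatic ductal adenocarcinoma, in 4 groups of 3 libraries. Parental cells and a resistant population derived from them were each profiled untreated and treated with oxamate, a pyruvate analog that competitively inhibits lactate dehydrogenase A (LDHA). Untreated cells had received vehicle, and the resistant cells were polyclonal survivors of prolonged oxamate exposure. The number of separate derivations was not given in the sources used here. The labels did not say that the libraries of a group came from separate cultures, so the p-values below measure the spread between these libraries, which may be technical. Among markers checked against the label, the keratin genes KRT8, KRT18 and KRT19, the ductal factor gene SOX9 and the mesenchymal gene VIM each had one. The start of CDH1, the epithelial cadherin, had a peak in 0 libraries and that of EPCAM in 1, and the islet, blood and endothelial markers INS, GCG, PTPRC, CD3E, PECAM1 and CDH5 had a peak in 0. Of the other mesenchymal genes, ZEB1 had a constitutive region of 2770 bp, beyond the width limit, and CDH2 had a peak in 0 libraries. COL1A1, a collagen gene typical of fibroblasts, did have a member, while the fibroblast receptor gene PDGFRB had a region in 6 libraries.

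Open chromatin at the start of an active gene is a nucleosome-poor stretch in which the transcription machinery assembles, and in ATAC-seq a transposase inserts preferentially there. Many such promoters, above all those of genes that every cell uses, lie in CpG islands, are bound by broadly expressed factors of the SP, NFY, ETS, NRF1 and YY1 families, and are accessible in most cell types. Where neighbouring genes are transcribed away from each other, a single open stretch can serve both starts.

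The gene starts held by members were rich in CpG dinucleotides. In RefSeq promoter windows (GRCh38.p14, 250 bases before to 50 after the start), the 7041 windows whose start lay in a member had a median GC content of 65.7%, against 57.7% in the 6751 windows whose start did not. The median ratio of observed to expected CpG was 0.868 against 0.434. Windows of 8 genes follow, each from 250 bases before to 30 bases after the annotated start. They were picked to show the promoter of the oxamate target (LDHA) and the promoters of 2 regions among those with the highest significance ranks (DHODH, UMAD1). The others were 3 promoters whose peaks were short in treated parental cells (DIP2C, FAM234A, KCNC1) and 2 whose peaks kept most of their length there (EIF2A, CTU1). Capitals mark matches on either strand to any of 9 motifs: TATAAA for the core promoter box of that name, GGGCGG for the GC box of SP1 and KLF factors, CCAAT for the box of NFY, CCGGAAG for ETS factors, GCATGCGC for NRF1, AAGATGGCG for YY1, TGACGTCA for the cyclic AMP response element, CACGTG for the E-box of MYC and USF factors, and TGAGTCA for AP-1. No motif contains another, and neighbouring matches may share bases. In the order printed, the windows lie at chr11:18394313-18394592 on the plus strand, chr16:72008494-72008773 on the plus strand, chr7:7640502-7640781 on the plus strand, chr10:689639-689918 on the minus strand, chr16:234571-234850 on the plus strand, chr11:17734531-17734810 on the plus strand, chr3:150546537-150546816 on the plus strand and chr19:51108380-51108659 on the minus strand, and each is written 5′ to 3′ along its gene.
LDHA: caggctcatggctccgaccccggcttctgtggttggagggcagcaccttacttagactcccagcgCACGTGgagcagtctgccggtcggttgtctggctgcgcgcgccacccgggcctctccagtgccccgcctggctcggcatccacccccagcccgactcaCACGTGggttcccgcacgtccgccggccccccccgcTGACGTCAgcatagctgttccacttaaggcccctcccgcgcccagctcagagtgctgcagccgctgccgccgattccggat
DHODH: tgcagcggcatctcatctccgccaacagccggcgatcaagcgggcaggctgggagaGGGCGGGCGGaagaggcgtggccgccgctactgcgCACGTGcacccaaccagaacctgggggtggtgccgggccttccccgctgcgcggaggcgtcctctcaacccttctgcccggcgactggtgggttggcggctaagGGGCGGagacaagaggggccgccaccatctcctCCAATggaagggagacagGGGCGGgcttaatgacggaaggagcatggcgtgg
UMAD1: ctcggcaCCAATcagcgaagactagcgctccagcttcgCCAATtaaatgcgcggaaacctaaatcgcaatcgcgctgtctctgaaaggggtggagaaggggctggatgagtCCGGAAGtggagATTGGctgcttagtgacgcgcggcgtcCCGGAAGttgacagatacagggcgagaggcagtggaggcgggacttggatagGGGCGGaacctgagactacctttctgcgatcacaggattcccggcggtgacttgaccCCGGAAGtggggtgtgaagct
DIP2C: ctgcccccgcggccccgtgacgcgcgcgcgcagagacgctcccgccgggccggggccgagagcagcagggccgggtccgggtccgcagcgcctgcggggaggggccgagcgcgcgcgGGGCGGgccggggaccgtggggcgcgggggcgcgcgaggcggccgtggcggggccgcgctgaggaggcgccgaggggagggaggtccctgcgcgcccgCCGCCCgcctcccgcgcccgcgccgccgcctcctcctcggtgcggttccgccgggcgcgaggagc
FAM234A: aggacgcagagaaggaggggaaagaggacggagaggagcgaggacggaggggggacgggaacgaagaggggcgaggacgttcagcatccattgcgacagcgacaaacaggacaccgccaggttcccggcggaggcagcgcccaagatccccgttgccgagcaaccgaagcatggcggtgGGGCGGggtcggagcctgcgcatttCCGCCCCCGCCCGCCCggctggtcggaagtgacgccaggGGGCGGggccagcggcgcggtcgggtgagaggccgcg
KCNC1: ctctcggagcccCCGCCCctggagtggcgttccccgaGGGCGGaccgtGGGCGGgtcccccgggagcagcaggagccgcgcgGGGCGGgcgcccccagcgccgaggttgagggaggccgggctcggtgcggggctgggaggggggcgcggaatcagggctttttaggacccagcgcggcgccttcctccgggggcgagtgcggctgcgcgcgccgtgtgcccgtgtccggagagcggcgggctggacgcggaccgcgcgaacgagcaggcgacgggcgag
EIF2A: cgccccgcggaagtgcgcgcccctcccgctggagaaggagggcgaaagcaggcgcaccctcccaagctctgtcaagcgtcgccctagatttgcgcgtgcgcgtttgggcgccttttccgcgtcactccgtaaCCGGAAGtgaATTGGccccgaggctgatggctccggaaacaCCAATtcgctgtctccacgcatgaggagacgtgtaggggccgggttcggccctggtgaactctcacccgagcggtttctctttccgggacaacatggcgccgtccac
CTU1: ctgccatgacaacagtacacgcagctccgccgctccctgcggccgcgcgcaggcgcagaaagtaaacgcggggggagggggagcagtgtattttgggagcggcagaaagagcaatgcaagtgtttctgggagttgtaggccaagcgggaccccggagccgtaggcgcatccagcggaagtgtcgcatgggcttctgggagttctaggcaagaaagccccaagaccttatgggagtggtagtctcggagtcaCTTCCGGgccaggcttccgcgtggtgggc

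Among these windows, that of LDHA held 2 E-boxes and 1 cyclic AMP response element in 69.6% GC. The window of DIP2C held 55 CpG dinucleotides in its 280 bases, at 86.4% GC, and that of UMAD1 held 22 at 58.6% GC with 3 CCAAT and 3 ETS matches. KCNC1 and FAM234A carried 4 and 5 GC boxes. EIF2A carried 2 CCAAT and 1 ETS match, and CTU1 carried 1 ETS match.

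Over all windows, 7 of the 9 motifs were more frequent at starts in members than at starts outside them, and 2 were less frequent. The GC box was present in 74.7% of member windows, against 58.5% of the 13792 windows examined and 41.6% of those without a member. CCGGAAG stood in 23.8%, 14.6% and 4.99% in the same order, AAGATGGCG in 4.9%, 2.87% and 0.755%, and GCATGCGC in 6.82%, 4.45% and 1.98%. TATAAA had the opposite order, with 4.45% of member windows, 10% of all and 15.9% of the rest. TGAGTCA was likewise less frequent in member windows, at 2.37%, 3.65% and 4.98%. CCAAT differed least in proportion, at 39.9%, 37.1% and 34.3%. CACGTG stood in 10.9%, 8.95% and 6.96% and TGACGTCA in 4.06%, 2.7% and 1.27%. These shares follow base composition as well as the motifs, they are descriptions, and a match does not show that a factor was bound.

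At least 1 member lay at an end of 10323 of 19974 protein-coding genes (51.7%). A further 919 genes (4.6%) had only constitutive regions of 2000 bp or wider, 3614 (18.1%) only regions called in fewer than 12 libraries, and 5118 (25.6%) no region within 1 kb of either end. The gene lists below were compiled by symbol. Of 9 genes of the chaperonin, the ring that folds newly made proteins, 9 had a member. Members stood at 31 of 32 genes of Mediator, which links transcription factors to RNA polymerase II, and at 82 of 87 genes for proteins of the cytosolic ribosome. The shares were also above that of all coding genes for splicing factors (43 of 47), aminoacyl-tRNA synthetases (32 of 35), the COP9 signalosome (9 of 10), respiratory complex I (32 of 36), mitochondrial ribosomal proteins (68 of 77), translation initiation (47 of 55), RNA polymerase II (11 of 13), glycolysis (14 of 17), the proteasome (37 of 48), the vacuolar ATPase (18 of 24) and zinc finger genes named ZNF (344 of 509). The translation initiation list took every symbol that begins with EIF and a digit, so not all its genes encode initiation factors. The RNA exosome, with 5 of 10, lay close to the share of all coding genes.

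Lists of genes with roles in particular tissues, in development or in induced responses had few members. Members stood at 5 of 392 olfactory receptor genes, 1 of 94 genes for keratin-associated proteins of hair, 5 of 39 HOX genes, and 0 of 25 taste receptor, 0 of 39 beta-defensin and 0 of 13 interferon alpha genes. Of the other HOX genes, which set positional identity, 2 had only wider constitutive regions, 18 only regions called in fewer than 12 libraries and 14 no region. Absence from the members did not always mean a closed gene: GAPDH, a glycolytic enzyme, and ACTB, cytoplasmic actin, had constitutive regions of 2530 and 3956 bp, beyond the width limit, as did POLR2B and POLR2H, the 2 RNA polymerase II genes without a member. LDHB, which encodes the other main subunit of lactate dehydrogenase, had a region in 1 library, and HK1 had none within 1 kb of either end of its annotated span. Reads that map to several places had been removed by the authors, so near-identical copies such as EIF3C and EIF3CL, both without a region, cannot be judged. By chromosome, the share of coding genes with a member ran from 34.7% on chromosome 21 and 35.7% on X to 58.2% on chromosome 16.

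**Figure D1:**
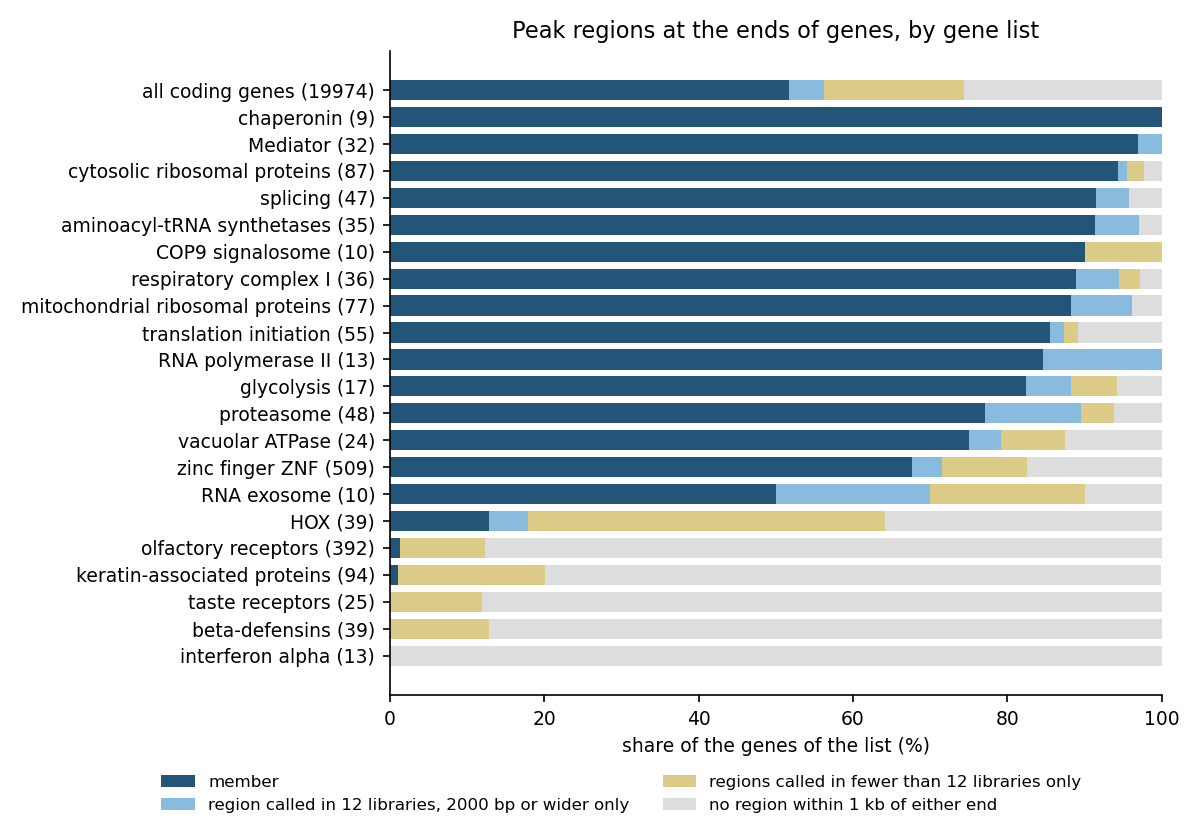
Each bar divides the protein-coding genes of a list (number of genes in parentheses) by the peak regions within 1 kb of either gene end, as a percent of the list. All coding genes are the top bar, with 51.7% having a member; the lists for basic cell functions lie above it apart from the RNA exosome, and the lists from HOX genes to interferon alpha genes lie at 12.8% or below.

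The members were narrow to moderate in width. Merged width ran from 160 to 1999 bp with quartiles of 915, 1173 and 1458 bp, and 8213 members (88.2%) held the gene end itself. The core, the bases covered in all 12 libraries, had a median of 443 bp, which was 39.6% of the merged width, and 139 members had no base in common. The narrowest members were those of LOC105378947 (160 bp), of SPR, which makes the cofactor tetrahydrobiopterin (179 bp, at the 3′ end of the gene), and of ZBTB7A, a transcriptional repressor (196 bp). Just inside the width limit lay the regions of AKNAD1, HIPK1 and TMEM131L, each 1999 bp wide, and just outside it those of XXYLT1 (2000 bp), FBXL17 (2001 bp) and CRAT (2002 bp). The bases covered per library ran from 788 to 1939 bp in the first 3 and from 983 to 1975 bp in the second 3, so the limit does not separate distinct kinds of region.

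Strand was known for 15812 genes, and by it most members were promoters. Of the members, 7244 (77.8%) lay near a start, 523 (5.62%) near the 3′ end of a gene only, and 1766 (19%) near an end whose kind could not be told. Regions within 1 kb of gene starts on both strands, 928 in number, are called divergent promoters below. Whether their genes are transcribed away from each other was not checked. These regions were the strongest class: their median width was 1254 bp, their median core 47.2% of it, and their median rank 9.14%. Rank is the place of a region's best peak in its list by the authors' -log10 q, and 0% is the top. The 5623 members at a single start had a median width of 1191 bp and a rank of 13.4%. The 523 members at a 3′ end only were narrower and weaker, with a median width of 725 bp, a core of 25.4% and a rank of 27.8%. Of these, 475 (90.8%) had no start of any RefSeq gene of the promoter table within 1 kb, 15 had an alternative or neighbouring coding start and 33 a start of another RefSeq gene only. Divergent promoters held the ETS motif CCGGAAG in 30.9% of their windows, against 20.9% at single starts, and the TATA box in 3.04% against 4.78%.

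The 6 members with the best ranks over the 12 lists varied in length to different degrees. The region of DHODH, the pyrimidine synthesis enzyme of mitochondria, had the best median rank, 0.189%, with 608, 600 and 533 bp covered in untreated parental, 499, 532 and 609 bp in treated parental, 636, 629 and 588 bp in untreated resistant and 634, 562 and 615 bp in treated resistant libraries. Its groups overlapped. The region shared by FTO, an RNA demethylase, and RPGRIP1L, a gene of the primary cilium, was covered over 687 to 772 bp in all 12 libraries at a median rank of 0.266%, and that of MXD1, an antagonist of MYC, over 843 to 998 bp. The others of the top 6 were ETV5 (an ETS factor), UMAD1, at 549 to 940 bp, and the region of FBXO24 and LRCH4, at 594 to 913 bp, and the authors' fold over local background in these 6 lay between 6.95 and 13.6. Only ETV5 among these 6 differed in length between phenotypes without overlap, at 536 to 812 bp in parental and 1059 to 1313 bp in resistant libraries. Resistant libraries were all longer than parental ones at 21.6% of members untreated and 54.5% under oxamate, beside 19.1% and 48.7% of all regions. In the centred limma fit described below, ETV5 was not called (adjusted p = 0.516 untreated and 0.376 under oxamate). Without centring its log2 difference was 0.81 untreated and 0.86 under oxamate (adjusted p = 0.115 and 0.0058, limma). Under oxamate its fold, relative to the median region, was lower in resistant cells (log2 difference -0.60, adjusted p = 0.0141, limma). So was that of FBXO24 and LRCH4 (-0.60), UMAD1 (-0.49) and MXD1 (-0.39), with adjusted p of 0.00437, 0.0167 and 0.0187 (limma). The same call was made at 10.4% of members and at 2908 of all 24148 regions.

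Lengths of the members moved with the libraries as a whole. The median number of bases covered per member was 806 ± 80 bp (SD, n = 3) in untreated parental, 623 ± 53.4 bp in treated parental, 945 ± 70.8 bp in untreated resistant and 905 ± 81.1 bp in treated resistant libraries (n = 3 each). The 3 treated parental libraries, at 562, 662 and 644 bp, lay below the other 9, the untreated parental ones (855, 850 and 714 bp) lay below the untreated resistant ones (1022, 883 and 929 bp), and the treated resistant ones (970, 814 and 930 bp) overlapped both untreated groups. The other regions called in 12 libraries had the same order, with 449, 322, 531 and 500 bp, so the order was not particular to the members. Members together covered 7.74, 6.03, 8.97 and 8.6 Mb in the 4 groups in the same order, which was 32.7%, 35.6%, 31.3% and 32.8% of all bases covered. A member was split into more than 1 peak in 8.01%, 12%, 2.26% and 3.33% of cases. The median of the authors' highest fold per member was 6.74 ± 0.354, 5.54 ± 0.252, 6.89 ± 0.396 and 7.03 ± 0.228 (SD, n = 3 each).

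Technical properties of the lists moved with these lengths. The smallest peak width of a list, which in paired-end peak calling reflects the mean fragment length, was 67 to 87 bp in the 6 parental and 94 to 124 bp in the 6 resistant libraries, with group means of 82.7, 73, 109 and 104 bp. Relative depth, recovered from the lists with the shallowest library at 1, averaged 1.55, 2.27, 1.43 and 1.08. On average, treated parental libraries thus were the deepest, with the smallest peak widths and the shortest members, and fragment length and phenotype cannot be told apart as sources of the difference in length. The lists held 45748 to 62414 peaks on the chromosomes used and did not give the absolute number of reads, so depth in reads is unknown. In bulk libraries a site open in fewer cells and a site less open in each cell also cannot be told apart.

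**Figure D2:**
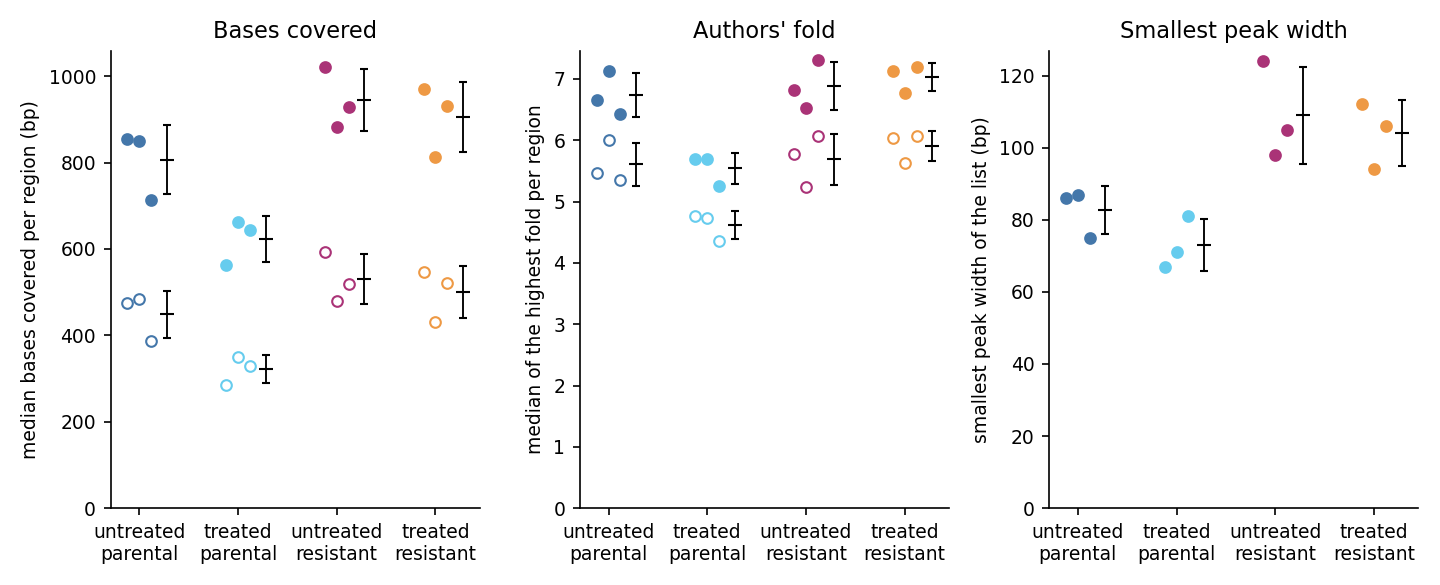
Points are libraries, filled for the members and open for the other regions called in 12 libraries, and black bars are group means ± SD (n = 3). The panels give the median bases covered per region (bp), the median of the authors' highest fold per region and the smallest peak width of each list (bp); the treated parental libraries are lowest in the first panel and the resistant libraries are highest in the third.

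Around the 5623 single starts, peaks reached farther into the gene than upstream of it. The median upstream reach was 355 ± 24.6 bp in untreated parental, 301 ± 16.4 bp in treated parental, 395 ± 26.8 bp in untreated resistant and 377 ± 29.3 bp in treated resistant libraries (SD, n = 3 each). Downstream, the reach was 448 ± 40.2, 329 ± 39.3, 526 ± 44 and 507 ± 47.6 bp. In the treated parental libraries the 2 sides were 282 and 287 bp, 313 and 365 bp, and 307 and 334 bp in replicates 1, 2 and 3, and in the least uneven library of the other groups, untreated parental replicate 3, they were 327 and 402 bp. A peak lay over the start itself in 88.8%, 84.6%, 90.1% and 90% of these members. Coverage was highest 20 bp upstream of the start in untreated and 23.3 bp upstream in treated parental libraries, and within 10 bp of the start in each resistant library.

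**Figure D3:**
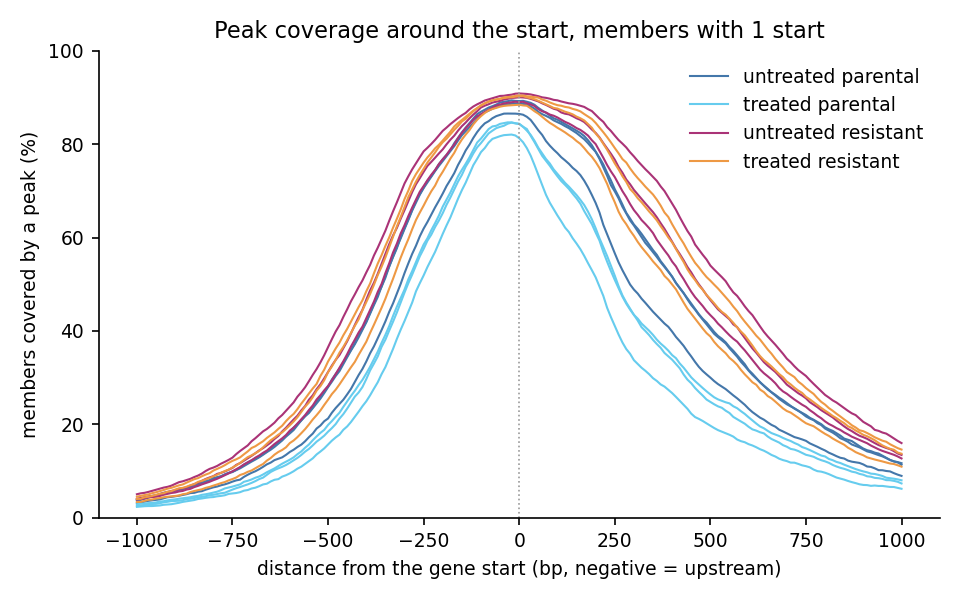
Percent of the 5623 members with a single gene start that were covered by a peak at each distance (bp) from that start, negative distances upstream, with 1 line per library coloured by group. The 3 treated parental lines are the lowest at the start, at 82.1% to 84.7% at their highest point, and fall away sooner on the downstream side.

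Length and fold both varied with GC content. Members were divided into 4 bins of similar size by the GC content of the window at their start. In the lowest bin (32.7% to 59.7% GC) the median length was 796 ± 74.7 bp in untreated and 637 ± 51.1 bp in treated parental libraries, and in the highest bin (72% to 94% GC) it was 908 ± 105 and 674 ± 59.6 bp (SD, n = 3 each). Over the 4 bins in order of GC content the lengths were 796, 827, 859 and 908 bp untreated and 637, 665, 678 and 674 bp treated. The authors' fold was highest in the second bin, at 7.32, 7.55, 7.11 and 6.3 untreated and 6, 6.21, 5.9 and 5.2 treated. The median uncentred log2 difference of length between these groups was -0.37 in the highest and -0.29 in the lowest bin. These are descriptions over members that share libraries.

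Whether single members changed beyond such library-wide shifts was asked by a limma fit to log2 bases covered over all 24148 constitutive regions, each library centred at its median region, with Benjamini-Hochberg adjusted p under 0.05 as the call. A called difference is thus one relative to the median region of the library, and differences below are on this log2 scale with the standard error after ±. The median difference over the members between treated and untreated parental libraries was -0.33 without centring and 0.12 with it. Between treated resistant and treated parental libraries it was 0.48 and -0.15, so that centring turned the sign of both. All comparisons share libraries, and those that involve treated parental cells are not independent of each other.

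Oxamate in parental cells was followed by the shortening of a small set of peaks at gene ends. Relative to the median region, 51 members (0.548%) were shorter in treated than in untreated parental libraries, beside 0.526% of all regions tested, and 1 was longer, beside 0.0373%. The member share was thus close to that of all regions for shorter members and, at 0.0107%, below it for longer ones. The 51 members shrank from a median of 952 bp to 263 bp, while they covered 1156 and 1084 bp in untreated and treated resistant cells. Their median rank was 38.5%, against 14.1% over all members. Their median core was 10.7% of the width, a value that the short peaks of treated parental cells largely fix.

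The smallest adjusted p in this comparison was at the start of DIP2C, a gene of the disco-interacting protein family on chromosome 10 (688706 to 690667). It was covered over 972, 1472 and 847 bp in untreated parental, 101, 172 and 206 bp in treated parental, 1817, 1745 and 1216 bp in untreated resistant and 1895, 1292 and 1812 bp in treated resistant libraries. Every treated parental library lay below all others. The log2 difference was -2.35 ± 0.23 (adjusted p = 0.00116, limma). FAM234A, on chromosome 16 (234412 to 235660), had 1155, 1077 and 831 bp untreated and 297, 369 and 364 bp treated in parental cells (-1.11 ± 0.13, adjusted p = 0.00534, limma). KCNC1, a voltage-gated potassium channel gene on chromosome 11 (17734492 to 17735258), had 488, 570 and 545 bp untreated and 93, 128 and 110 bp treated (-1.83 ± 0.24, adjusted p = 0.00844, limma). Its resistant libraries, at 457 to 613 bp untreated and 580 to 767 bp treated, overlapped or exceeded the untreated parental lengths.

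TBX2, a developmental T-box factor gene, fell from a mean of 1384 ± 459 bp to 231 ± 128 bp (SD, n = 3), SMIM32, which encodes a small membrane protein, from 685 ± 213 to 120 ± 10.7 bp, and TNFRSF10D, a decoy receptor for the death ligand TRAIL, from 985 ± 339 to 180 ± 45.6 bp, each with an adjusted p of 0.00844 (limma). In all 6 named regions the treated and untreated parental libraries did not overlap. At TBX2 and TNFRSF10D no base was covered in all 12 libraries, so the lengths compared need not come from the same stretch. The shortest treated parental lengths were 93 bp at KCNC1, 101 bp at DIP2C and TBX2, and 108 bp at SMIM32. They lay near the smallest peak widths of those lists, 67 to 81 bp. The mean of the authors' fold was lower in treated parental libraries at each of the 6 regions. At DIP2C it was 4.48 ± 0.604 untreated and 3.59 ± 0.167 treated, and at FAM234A 3.47 ± 0.167 and 3.11 ± 0.107 (SD, n = 3). Over all members the median fold was 6.74 untreated and 5.54 treated. Relative to the median region, the log2 difference of fold lay between -0.05 and 0.24 at the 6 regions, and none was called. The single member that was longer under oxamate was at the start of SLAIN2, which promotes microtubule growth. It had 912, 884 and 796 bp untreated and 913, 1036 and 1097 bp treated (0.69 ± 0.12, adjusted p = 0.0216, limma), a difference that without centring was 0.23 (adjusted p = 0.232, limma).

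Without centring, 716 members (7.69%) were shorter under oxamate in parental cells, beside 6.87% of all regions, and 0 were longer. All 3 treated libraries were shorter than all 3 untreated ones at 2957 members (31.8%), beside 30% of all regions. The 51 members called shorter with centring included 1 of 40 proteasome, 1 of 72 mitochondrial ribosomal, 1 of 33 Mediator, 1 of 348 zinc finger and 0 of 95 cytosolic ribosomal regions. The total of 52 calls was 10 without untreated parental replicate 2, 17 without replicate 1 of that group, and 96, 139 and 156 without treated parental replicates 1, 2 and 3.

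In resistant cells no member passed this test under oxamate. The limma fit called 0 members, beside 0% of all regions, and 178 members (1.91%) had an unadjusted p under 0.05. Every other setting tried also gave 0 calls. All 3 treated libraries were shorter than all untreated ones at 569 members (6.11%), beside 5.64% of all regions. The smallest p among lower members was at ZNFX1, which encodes a helicase, with 1230, 721 and 814 bp untreated and 381, 300 and 555 bp treated (-1.08 ± 0.25, adjusted p = 0.999, limma). MRPL1, a mitochondrial ribosomal protein gene, had 1716, 1366 and 1572 bp untreated and 1113, 897 and 690 bp treated (-0.72 ± 0.19, adjusted p = 0.999, limma), and KLF10, a zinc finger factor gene, had 1053, 947 and 993 bp against 304, 353 and 397 bp (-1.42 ± 0.37, adjusted p = 0.999, limma). In the other direction XPO7, an exportin gene, had 418, 348 and 422 bp untreated and 1379, 810 and 526 bp treated (1.18 ± 0.27, adjusted p = 0.999, limma). The next 2 in that direction, LOC124902694 and LOC128031833, had differences of 0.53 and 0.89 (adjusted p = 0.999 each, limma). At the 4 regions given by library the treated and untreated libraries did not overlap, yet none passed the adjustment over all regions. At KLF10 no base was covered in all 12 libraries.

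The test of the difference between the 2 oxamate effects called 2 members, at the starts of DIP2C and ELOB, beside 0.0248% of all regions. ELOB encodes elongin B, a subunit of ubiquitin ligases and of an elongation complex. Its region on chromosome 16 (2776781 to 2778299) was covered over 1263, 1328 and 898 bp in untreated parental, 328, 253 and 385 bp in treated parental, 1096, 1057 and 950 bp in untreated resistant and 1438, 1304 and 1375 bp in treated resistant libraries. Treated libraries thus lay below untreated ones in parental cells and above them in resistant cells, a difference of effects of 1.90 ± 0.26 (adjusted p = 0.0389, limma), against 2.50 ± 0.32 at DIP2C (adjusted p = 0.0365, limma). Without centring 39 members were called, beside 0.344% of all regions. Left out in turn, the 3 libraries of untreated parental cells, the 3 of treated resistant cells and replicates 2 and 3 of untreated resistant cells each took the count to 0, untreated resistant replicate 1 took it to 1, and treated parental replicates 1, 2 and 3 raised it to 10, 20 and 20. CARM1, an arginine methyltransferase gene, had the smallest p in the other direction, with 548 to 638 bp in untreated and 611 to 1016 bp in treated parental, 834 to 1275 bp in untreated resistant and 631 to 646 bp in treated resistant libraries (-1.65 ± 0.33, adjusted p = 0.159, limma). The region of ACAT2 and SOD2, a thiolase and a superoxide dismutase gene, and that of SEC22B, a vesicle fusion gene, followed with -1.06 and -0.95 (adjusted p = 0.225 and 0.314, limma).

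Between untreated resistant and untreated parental cells 1 member was called, beside 0.00828% of all regions. It was at the start of TRAF2, a signalling adaptor of tumour necrosis factor receptors, on chromosome 9 (136881913 to 136882906). This region was covered over 183, 125 and 97 bp in untreated parental and 103, 89 and 83 bp in treated parental libraries, and over 947, 931 and 892 bp in untreated resistant and 907, 620 and 994 bp in treated resistant ones. The phenotypes did not overlap, at 6.84 times the length in the untreated pair (2.56 ± 0.26, adjusted p = 0.00642, limma). The authors' fold there was 3.07 ± 0.272 in parental and 2.97 ± 0.348 in resistant cells (SD, n = 3). Only 51 bp were covered in all 12 libraries. The shortest lengths, 83 and 89 bp in treated parental cells, lay near the smallest peak widths of those lists, 67 to 81 bp. The call was lost without untreated parental replicate 2 or 3 or untreated resistant replicate 1 or 3, with an adjusted p of up to 0.0696 (limma). Lower members with the smallest p were at JUND, an AP-1 subunit gene, with 1029, 1307 and 1154 bp in parental and 836, 756 and 775 bp in resistant cells (-0.81 ± 0.15, adjusted p = 0.152, limma), at the 3′ end of GADD45B, a stress-induced gene, with 698 to 827 bp against 359 to 505 bp (-1.11 ± 0.23, adjusted p = 0.204, limma), and at the region of COX11, of cytochrome oxidase assembly, and STXBP4 (-0.58, adjusted p = 0.287, limma). Without centring 5 members were longer in resistant cells, beside 0.0787% of all regions. All resistant libraries were longer than all parental ones at 2010 members (21.6%), beside 19.1% of all regions.

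Most calls lay between treated resistant and treated parental cells. Relative to the median region, 281 members (3.02%) were longer in treated resistant cells, beside 3.3% of all regions, and 661 (7.1%) were shorter, beside 5.21%. The direction of the second set depended on centring: without it 2930 members (31.5%) were longer, beside 28.2% of all regions, and 0 were shorter. All 3 treated resistant libraries covered more bases than all 3 treated parental ones at 5071 members (54.5%), beside 48.7% of all regions. They covered fewer at 5 members (0.0537%), beside 0.779% of all regions. With quantile normalization the counts were 209 longer (2.24%) and 74 shorter (0.795%), beside 527 and 249 of all 24148 regions. With bases divided by the smallest peak width of each list, a setting chosen after seeing the data, they were 249 (2.67%) and 47 (0.505%). The counts over all regions in that setting were 657 and 152.

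The 2 sets were of different kinds. Members called longer had a median length of 301 bp in treated parental and 1068 bp in treated resistant cells, a median rank of 35.3% and a median core of 11.6%. Those called shorter had 988 and 1031 bp, a rank of 6.8% and a core of 70.8%, so that their measured length was nearly the same in both groups (median uncentred log2 difference 0.06) while the typical member was longer in resistant cells. Core and length come from the same peaks, so this is a description of the 2 sets and no independent measure. At the gene starts of members called longer the median GC content was 68.7%, against 64.3% at those called shorter. CCAAT stood in 31.1% of the windows of the first and 47.2% of the second, and CCGGAAG in 19.8% and 26.2%. By class, 103 of 928 divergent promoters (11.1%) were called shorter and 9 longer, against 400 (7.11%) and 157 of the 5623 single starts, and 16 and 15 of the 523 members at 3′ ends.

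**Figure D4:**
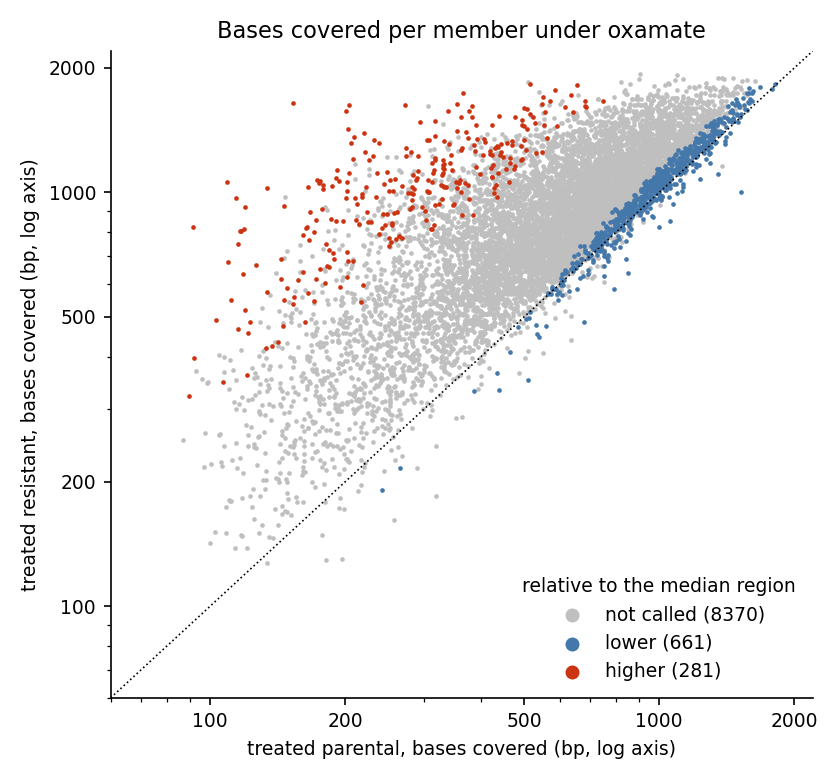
Each point is a member, at the geometric mean of the bases covered in the 3 treated parental libraries (horizontal, bp, log axis) and the 3 treated resistant libraries (vertical, bp, log axis), with the dotted line marking equal length. Most of the cloud lies above the line; the 281 members called higher relative to the median region lie far above it, and the 661 called lower lie close to the line.

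Members longer in treated resistant cells were led by DIP2C (2.80 ± 0.23, adjusted p = 0.000306, limma) and TRAF2 (2.55 ± 0.26, adjusted p = 0.00123, limma), whose lengths in each library are given above. ITPKB, an inositol trisphosphate kinase gene on chromosome 1 (226737439 to 226738769), was covered over 143, 272 and 167 bp in treated parental and 1313, 755 and 1118 bp in treated resistant libraries, and over 623 to 792 bp and 1148 to 1167 bp in the untreated pair (1.85 ± 0.21, adjusted p = 0.00185, limma). SMIM32, FAM234A and KCNC1 completed the 6 with the smallest adjusted p, with lengths 8.04, 3.42 and 6.19 times those of treated parental cells. At these 6 the parental and resistant libraries under oxamate did not overlap. The authors' mean fold in treated resistant against treated parental libraries was 4.63 against 3.59 at DIP2C, 4.09 against 3.11 at FAM234A and 3.64 against 3.2 at SMIM32. At ITPKB it was 4.62 against 3.85, at KCNC1 4.05 against 3.76 and at TRAF2 2.98 against 3.09. Over all members the median fold was 7.03 against 5.54. Relative to the median region, fold did not follow length: its log2 difference was 0.00 at DIP2C and -0.41 at TRAF2. The latter was past the threshold in the opposite direction (adjusted p = 0.0402, limma).

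Among members shorter relative to the median region, the measured lengths of the 2 groups mostly overlapped. The region of EIF2A, a translation initiation factor gene, and SERP1, a gene of the endoplasmic reticulum stress response, on chromosome 3 (150546043 to 150547308), was covered over 929, 1136 and 1095 bp in treated parental and 982, 899 and 1056 bp in treated resistant libraries (-0.73 ± 0.12, adjusted p = 0.00895, limma), a difference that without centring was -0.10 (adjusted p = 0.51, limma). CTU1, which thiolates transfer RNA, had 880, 1019 and 997 bp against 1044, 697 and 928 bp (-0.76 ± 0.13, adjusted p = 0.0113, limma). The 3′ end region of IGBP1C, the ubiquitin-related UBAP2, and the endocytic gene EHD1 were also among the 6, with libraries that overlapped at the first 2 and met at 829 bp at EHD1. Only at the region of DERL2, of endoplasmic reticulum protein degradation, and MIS12, of the kinetochore, did the libraries separate, at 1057 to 1227 bp and 991 to 1052 bp. Uncentred, none of these 6 passed, with adjusted p between 0.212 and 0.51 (limma).

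**Figure D5:**
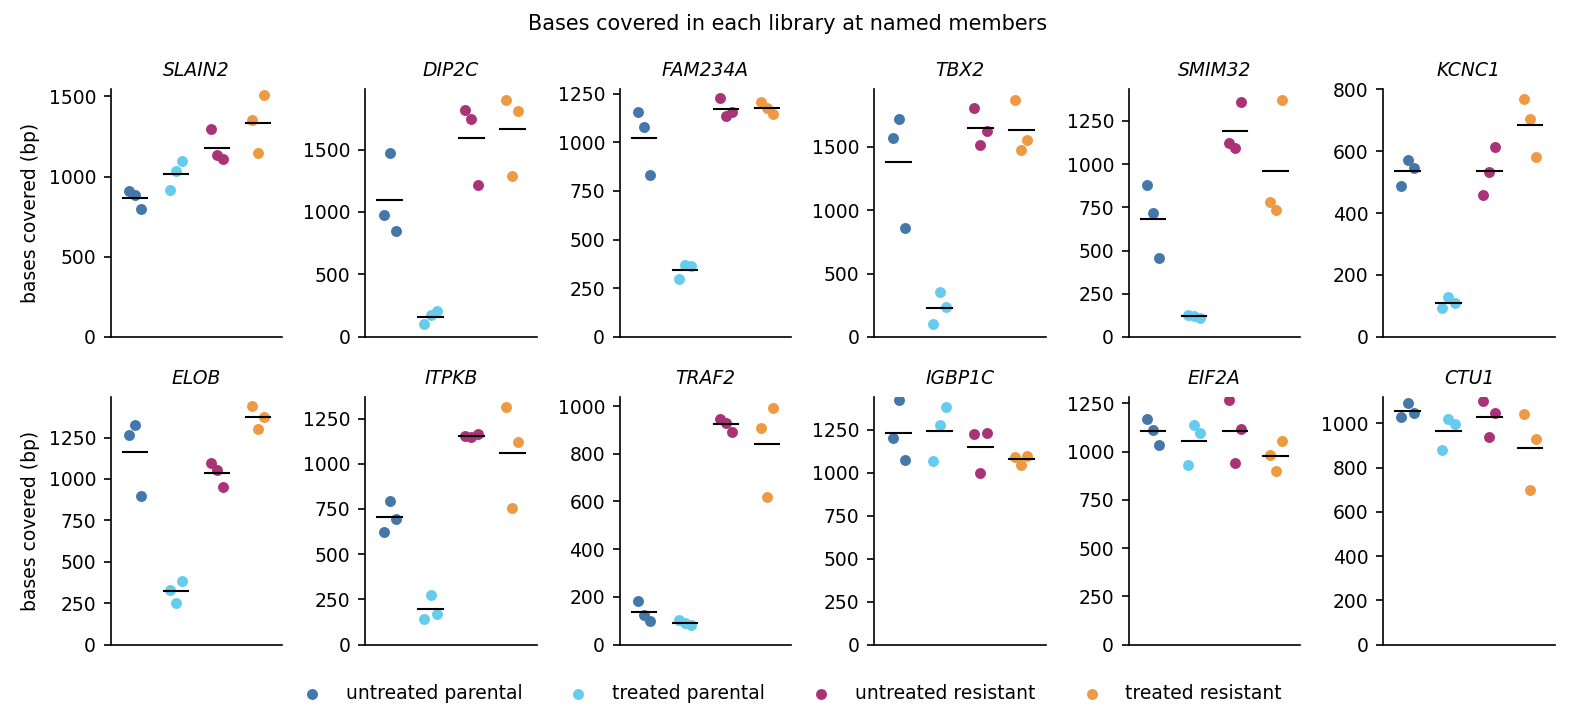
Bases covered (bp) in each library at 12 named members, with 1 point per library, colours for the 4 groups and a black line at each group mean. The treated parental points of DIP2C, FAM234A, TBX2, SMIM32, KCNC1 and ELOB lie below those of the other groups, TRAF2 separates by phenotype, and the groups lie close together at IGBP1C, EIF2A and CTU1.

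Against 3.02% of all members called longer and 7.1% called shorter, the gene lists gave the following counts. Of 12 member regions at RNA polymerase II genes 0 were called longer and 3 shorter. Of 95 member regions at cytosolic ribosomal protein genes 3 were called longer and 6 shorter, of 72 at mitochondrial ribosomal genes 5 and 6, of 54 at translation initiation genes 2 and 6, of 40 at proteasome genes 1 and 6, of 34 at complex I genes 0 and 4, of 33 at aminoacyl-tRNA synthetase genes 0 and 3, of 33 at Mediator genes 2 and 2, and of 348 at zinc finger genes 4 and 24. The median log2 difference over the members was -0.15 relative to the median region, and lay at -0.26 for cytosolic ribosomal, -0.34 for proteasome, -0.30 for synthetase, -0.18 for zinc finger and -0.07 for Mediator members. Uncentred, these medians were positive, at 0.37, 0.28, 0.33, 0.45 and 0.55, against 0.48 over all members. For glycolysis 1 of 16 regions was longer and 0 shorter.

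Single libraries set the size of this comparison. The 942 calls fell to 44 without treated resistant replicate 3 and to 55 without replicate 1 of that group. They fell to 266 and 604 without treated parental replicates 1 and 3, to 501, 494 and 296 without untreated resistant replicates 1, 2 and 3, and to 515 without untreated parental replicate 1. Without either of the first 2 libraries the fit called 41 or 48 members longer and 3 or 7 shorter. With the authors' fold in place of bases covered, 383 members (4.11%) were higher and 970 (10.4%) lower, beside 997 and 2908 of all 24148 regions. Of the 281 members called longer, 6 were called higher and 50 lower by fold.

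At the promoter of LDHA, the enzyme that oxamate inhibits, a single member of 810 bp (chromosome 11, 18394043 to 18394852) spanned the start printed above. It was covered over 753, 680 and 528 bp in untreated parental, 556, 568 and 523 bp in treated parental, 734, 647 and 717 bp in untreated resistant and 678, 636 and 629 bp in treated resistant libraries. Lengths of the 4 groups overlapped apart from those of treated parental libraries, which lay below both resistant groups. Treated resistant libraries were all longer than treated parental ones at 54.5% of members and 48.7% of all regions. Over treatments, resistant cells exceeded parental ones by 72.2 bp (two-sided exact permutation within treatment, 400 assignments, p = 0.07, adjusted p = 0.07 over 2 tests), and over phenotypes treated cells differed from untreated ones by -78.2 bp (exact permutation p = 0.06, adjusted p = 0.07), where 0.005 is the smallest p the design allows. Neither passed. Without untreated parental replicate 1 the first difference was 97 bp (exact permutation p = 0.015) and without replicate 3 it was 40.8 bp. The second was -53.3 bp without replicate 1 and -110 bp without replicate 3 (exact permutation p = 0.01), and was -91.2 bp without untreated resistant replicate 2 (exact permutation p = 0.025). Both tests used lengths that were not centred, so these differences include the library-wide shift. Relative to the median region, the LDHA log2 difference under oxamate was 0.22 in parental and -0.02 in resistant cells (adjusted p = 0.47 and 0.999, limma). Between resistant and parental cells it was -0.15 untreated and -0.39 under oxamate (adjusted p = 0.823 and 0.126, limma). LDHC, a testis form of the enzyme, had a member of 385 bp at its start with 156 to 359 bp covered. Relative to the median region, the LDHC member was called shorter in treated resistant than in treated parental cells (-0.97 ± 0.26, adjusted p = 0.0435, limma). Without centring that difference was -0.34 (adjusted p = 0.291, limma).

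Other genes of glycolysis and of the basal machinery gave further reference points. PGK1, phosphoglycerate kinase on the X chromosome, was covered over 715 to 751 bp in untreated parental, 445 to 566 bp in treated parental, 602 to 764 bp in untreated resistant and 697 to 737 bp in treated resistant libraries, with the treated parental ones below the rest. Treated parental libraries lay below all untreated parental ones at 31.8% of members and 30% of all regions. Relative to the median region, the PGK1 difference between these groups was -0.03 ± 0.19 (adjusted p = 0.949, limma), and without centring it was -0.49 (adjusted p = 0.054, limma). Between treated resistant and treated parental cells the PGK1 difference was -0.15 with centring (adjusted p = 0.62, limma). Without centring it was 0.47 (adjusted p = 0.028, limma). The start of ENO1, enolase, was covered over 1006 bp in treated parental replicate 1 and over 1463 to 1528 bp in each of the other libraries. HK2, the inducible hexokinase, varied most, from 197 to 567 bp in treated parental to 1356 to 1850 bp in untreated resistant libraries. It was not called for oxamate in parental cells (-0.80 ± 0.36, adjusted p = 0.259, limma). Nor was it called between treated resistant and treated parental cells (0.98 ± 0.36, adjusted p = 0.0943, limma). Without centring HK2 was called longer in that comparison (1.60, adjusted p = 0.0213, limma), as were 31.5% of members and 28.2% of all regions. The uncentred difference for oxamate in parental cells was -1.25 (adjusted p = 0.0911, limma). By the authors' fold relative to the median region, HK2 was called lower in treated resistant cells (-0.60, adjusted p = 0.0286, limma), as were 10.4% of members. SLC2A1, the glucose transporter, had members at both ends, with 1304 to 1605 bp covered at its start and 629 to 827 bp at its 3′ end. Relative to the median region, both were called shorter in treated resistant than in treated parental cells. The differences were -0.56 at the start and -0.51 at the 3′ end (adjusted p = 0.0261 and 0.0451, limma). Without centring they were 0.06 and 0.12 (adjusted p = 0.538 and 0.432, limma).

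MARS1, methionyl-tRNA synthetase, shared a member with ARHGAP9, with 434 to 677 bp in untreated and 295 to 621 bp in treated parental libraries and 500 to 547 bp and 561 to 648 bp in resistant ones. MYC had a member at each end of the gene. The one at the lower coordinate was covered over 1116 to 1428 bp in all 12 libraries, and the other over 201 to 711 bp in treated parental and 899 to 1600 bp in the other libraries. The MYC member at the higher coordinate was not called for oxamate in parental cells (-0.96 ± 0.34, adjusted p = 0.185, limma). Nor was it called between treated resistant and treated parental cells (0.66 ± 0.34, adjusted p = 0.217, limma). Without centring this MYC member was called in both comparisons, at -1.41 and 1.28 (adjusted p = 0.0495 and 0.031, limma). Uncentred, 7.69% of members were shorter in the first, beside 6.87% of all regions, and 31.5% longer in the second, beside 28.2%. By the authors' fold relative to the median region, it was called lower in treated resistant cells (-0.56, adjusted p = 0.0198, limma). TBP, the TATA-binding protein, shared a region of 1979 bp with the proteasome gene PSMB1, and POLR2A, the largest subunit of RNA polymerase II, had one covered over 1593 to 1791 bp. Relative to the median region, the POLR2A member was called shorter in treated resistant than in treated parental cells (-0.51 ± 0.13, adjusted p = 0.0359, limma). Without centring that difference was 0.11 (adjusted p = 0.22, limma).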

How the data were processed

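Nuclei of MIAPaCa2 cells were profiled by ATAC-seq in 12 libraries, grouped by sample title. The authors aligned paired-end reads with Bowtie2 (2.1.0), removed mitochondrial, duplicate and multiply mapped reads and called broad peaks per library with MACS2, whose version is not given in the sources used here. Each deposited list gives a peak's position, the authors' score, the deposited fold over local background and the authors' -log10 p and -log10 q. The build is hg38 per the labels, and starts were shifted to count from 1. Read counts are not in these lists, so the authors' count-based test was not run. Depth is unknown in reads, and no interval that needs it is given.

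Peaks were merged as described in the report, and bases covered per member and library were summed from peak positions. Every member has bases covered above 0 in each library, so no pseudocount was used. A linear model in limma (3.58.1, R 4.3.3, mean-variance trend) was fitted to log2 bases covered over 24148 regions, with 4 group means in 1 fit, and p-values were adjusted over all of them. It was tested on simulated data. The LDHA region was tested by exact permutation in Python (3.11.15). Strand and promoter sequence came from the RefSeq table (GRCh38.p14), which gave strand for 15812 of 19974 coding genes. Named members were, per comparison and direction, the 6 called with the smallest adjusted p (3 for the difference of effects, and 3 by smallest p where none was called), the 6 best ranks, the 3 narrowest, the 3 on each side of the width limit and a fixed gene list. The members, gene lists and rules were chosen with earlier results of these data known. Alternatives were no centring, quantile normalization, no trend, a replicate block, the authors' fold, peaks with -log10 q of at least 3, peaks covering at least 50% of a region, a 500 bp distance, gene starts only and leaving out each library. Bases per bp of smallest peak width was added after seeing the data. Some members of the fixed gene list are not reported here.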

Additional observations from a re-analysis of the deposited data

Results flagged for a closer look

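The test of a difference in the effect of oxamate between parental and resistant cells called 2 members, a count that was 0 with a replicate block, 0 by the authors' fold and 0 to 20 with a library left out. At the start of DIP2C the difference of the log2 effects on bases covered (resistant minus parental) was 2.50 ± 0.32 (adjusted p = 0.0365, limma), and at the start of ELOB it was 1.90 ± 0.26 (adjusted p = 0.0389, limma). By the authors' fold the same differences were 0.09 and -0.27 (adjusted p = 0.914 and 0.655, limma). Both regions shortened in 3 of 3 treated parental libraries, the group whose smallest peak width was lowest on average (73 bp), and the part of that property in these differences was not tested. Groups of 3 libraries were not examined for outlying values.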

How the results depend on the processing

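The number of members was 9312, 7333 where only peaks at a -log10 q of 3 or more were used, 3557 where peaks had to cover at least 50% of a region, and 9329 to 9584 with a library left out. Counts of members called depended on the setting. For oxamate in parental cells the 52 calls became 716 without centring, 299 per bp of smallest width without centring (chosen after seeing the data), 8 at 50% overlap and 2, both higher, by the authors' fold, and 10 to 156 with a library left out. For oxamate in resistant cells every setting gave 0. For untreated resistant against parental cells the 1 call became 5 without centring, 2 with quantile normalization, 16 by the authors' fold, 4 at the stricter q and 0 at 50% overlap, and 0 to 2 with a library left out. Under oxamate the 942 calls became 2930 without centring, 283 with quantile normalization, 393 without the mean-variance trend, 11 at 50% overlap and 296 per bp of smallest width, and 44 to 1076 with a library left out. For the difference of the oxamate effects the 2 calls became 39 without centring, 0 by the authors' fold, 8 at the stricter q, 0 at 50% overlap and 8 per bp of smallest width, and 0 to 20 with a library left out. The 50% setting keeps fewer members, and the other causes were not tested.

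Over 18 same-numbered pairs of libraries the correlation of deviations from the group means lay between -0.09 and 0.16. It exceeded 0.1 in 2, both of an untreated with a treated resistant library (0.128 and 0.155). Pairs with different numbers were not compared, so these values do not decide whether replicate numbers pair the libraries. With the replicate block the counts were 44 lower in parental cells, 2 for untreated cells, 228 under oxamate and 0 for the difference of effects.

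The direction at single members turned with the authors' fold, in log2 relative to the median region. Under oxamate in parental cells it was 0.13 at FAM234A, 0.10 at TBX2, 0.24 at TNFRSF10D and 0.01 at KCNC1. In resistant cells it was -0.23 at XPO7, -0.20 at LOC124902694, -0.29 at LOC128031833, 0.11 at ZNFX1 and 0.03 at MRPL1. Between untreated cells it was -0.08 at TRAF2, 0.03 at JUND and 0.18 at COX11. Under oxamate it was -0.41 at TRAF2, -0.18 at SMIM32, -0.12 at ITPKB, -0.25 at KCNC1, 0.12 at IGBP1C, 0.08 at EIF2A, 0.04 at CTU1, DERL2 and EHD1 and 0.25 at UBAP2. For the difference of effects it was -0.27 at ELOB, 0.49 at CARM1, 0.17 at ACAT2 and 0.50 at SEC22B. At LDHA the phenotype difference in fold was -0.38. With a library left out the LDHA differences in bases covered ran from 40.8 to 97.0 bp and from -110 to -53.3 bp. Bases covered measure how far a peak extends and not its height, and without read counts neither separates signal from fragment length and depth.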
